A study of Gossypium hirsutum with 51 samples.

Results

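Among 11682 cDNA clones printed on arrays of upland cotton (Gossypium hirsutum), 190 were chosen for 2 properties. Their signal at +10 was lower in the fl mutant than in wild type, with a mean log2 ratio of wild type over fl of at least 1.5. In wild-type ovules their signal at +15 was still above that at +3, with a mean log2 ratio of at least 0.5. Of the 11682 clones, 9106 were measured in both of these comparisons, and 488 met the first criterion. Among the 488, 190 also met the second and are called members here, 52 stood at -0.5 or lower at +15, 241 lay in between, and 5 were not measured at +15. The members were thus chosen by measured ratios of these arrays, and their values in those 2 comparisons are given as a description and were not tested.

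Total RNA of whole ovules was hybridised in pairs, 1 RNA labelled with Cy5 and the other with Cy3. The samples were ovules of the fl mutant at +3 and +10 and wild-type ovules at -3, 0, +3, +5, +10, +15 and +20, in days from anthesis, the opening of the flower. Wild type was set against fl at +3 and at +10, and each other wild-type age was set against wild type at +3. Each of the 8 comparisons had 3 sets, and a set was 1 array and its dye swap, averaged here to 1 replicate. The labels name the mutant only as fl, without an allele. It is known from published work as fuzzless-lintless, a line whose seeds bear no fibre. Whole ovules were taken, so fewer cells of a type and less RNA per cell cannot be told apart. No clone carries a gene name in the files used here, so the labelled tissue was not checked against markers and no role is given for any clone.

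A cotton fibre is a single epidermal cell of the ovule that grows out around the day of flowering. The cell first elongates through its primary wall and later lays down a thick secondary wall of nearly pure cellulose, while the embryo and seed coat grow below it. The ages sampled in wild type run from before fibre outgrowth, through elongation, to about the onset of wall thickening.

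All values below are log2 ratios, so 1 is a 2-fold difference. An age is given relative to wild type at +3, and a positive value means higher at that age. A genotype ratio is wild type over fl, and a positive value means lower in fl. No label states the direction of the ratios. It is called likely from the control spot HEX, which read between -11.7 and -7.16 on forward arrays and between 5.83 and 12.1 on dye swaps. The clone values of wild type over fl at +3 were turned. Their dye effect, taken from the difference between an array and its swap, had a correlation across clones between -0.57 and -0.40 with 3 arrays that carried +3 wild-type RNA in both channels. For the 21 sets elsewhere it ran from -0.06 to 0.69, with 1 set below 0. The labels do not settle the sign at +3, so deposited values accompany the turned ones. Only clone values were turned. HEX and the spots listed under gene-like names were left as deposited. Those spots ran from 0.15 (ATP1) to 2.04 (SDH) for wild type over fl at +3. HEX kept 1 sign on forward arrays and the other on dye swaps, so it gave no reason for the turn. Why clones and spots would differ in sign was not tested. The array of +5 in set 3 and that of +10 in set 2 hold the same control values, 19 of 19, and both sets were left out, so +5 and +10 against +3 rest on 2 sets. An array measured between 7639 and 11681 clones, and array medians ran from -0.52 to 0.47.

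In the comparisons that chose them, the members had a median of 2.17 for wild type over fl at +10, with a range from 1.501 to 4.35, against a median of -0.14 over all clones. The first criterion was met by 5.30% of the clones measured there. At +15 the members had a median of 0.73 and a range from 0.50 to 5.18, against -0.05 over all clones, and 20.4% of clones met that criterion. The cut at +15 passed through a dense part of the distribution. CM039D03, CM117D11 and CM012D02 lay just inside it at 0.502, 0.503 and 0.506, and CM052E06, CM011G03 and CM010H12 just outside it at 0.499, 0.497 and 0.493. A total of 102 members lay within 0.25 above this cut, and 111 clones that met the first criterion lay within 0.25 below it. At the cut for the genotype ratio, CM080E07, CM047C11 and CM059H04 were just inside at 1.501, 1.504 and 1.505. CM043G04, CM027G12 and CM018B05 were just outside at 1.493, 1.490 and 1.483.

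**Figure D1:**
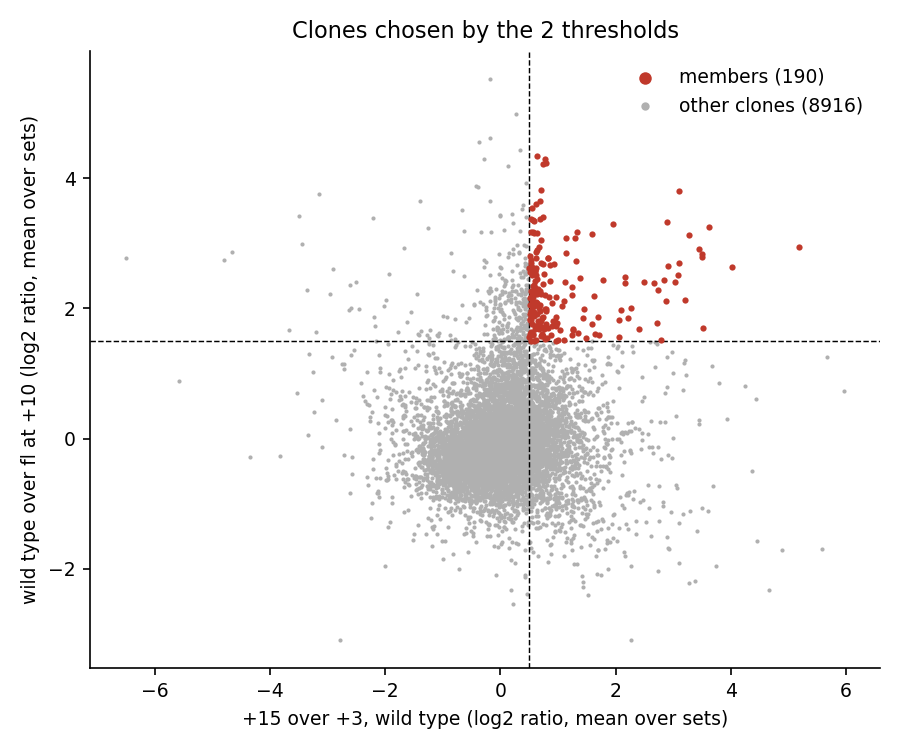
Each point is 1 of the clones measured in both comparisons that chose the members, with the mean log2 ratio of +15 over +3 in wild type on the x axis and of wild type over fl at +10 on the y axis, and dashed lines mark the 2 cuts. The 190 members fill the upper right corner and crowd against the cut at 0.5.

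The choice of members was repeated with each set left out, and the values were then read in that set. These readings come from the same 2 comparisons that chose the members, so they are descriptions and were not tested. Members chosen without set 1 numbered 201. In set 1, 171 of the 196 measured for wild type over fl at +10 were at or above 1.5 (87.2%, against 4.83% of all clones), and 116 of 201 were at or above 0.5 at +15 (57.7%, against 18.4%). Members chosen without set 2 numbered 191. In set 2, 141 of 179 reached the first cut (78.8%, against 5.32%) and 164 of 183 the second (89.6%, against 20.0%). Members chosen without set 3 numbered 141. In set 3, 129 of 141 reached the first cut (91.5%, against 5.69%) and 126 of 141 the second (89.4%, against 24.6%). Of these readings 1 was below 0, at -0.08 for +15 in set 3.

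Before and on the day of flowering most members were lower than at +3. At -3, 154 of the 181 members tested were lower (limma, adjusted p under 0.05), where 25.0% of all clones were, and 5 were higher, where 20.0% of all clones were. The median of the members was -1.38, against 0.01 over all clones. At least 2-fold lower were 127 members, against 573 of 10693 clones. The members' medians in the 3 sets were -1.34, -1.25 and -1.90, against -0.04, 0.20 and -0.26 over all clones. These sets measured 185, 183 and 140 members. At 0, 157 of 190 were lower, against 14.2% of all clones, and none was higher, against 14.4%, with 2 higher at an unadjusted p under 0.05. Fitted alone, this comparison called 9 members higher, and with arrays centred and scaled 4. Their median at 0 was -1.02, against 0.04 over all clones, and 98 were at least 2-fold lower, against 270 of 11664 clones. By sign alone, 131 of 139 members measured in all sets lay below 0 in every set at -3, where 32.9% of all clones did. At 0, 173 of 190 lay below 0 in every set, where 30.7% of all clones did, and 10 lay above it, where 42.6% did. This comparison and all other ages share the +3 wild-type RNA with the +15 criterion, and the same holds for the genotype comparison at +3.

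The members furthest below +3 before flowering were CM003F06, CM014B05 and CM042A06. CM003F06 had -2.62, -2.65 and -3.03 in the 3 sets at -3, a 6.80-fold lower level (-2.77 ± 0.23, SD, n = 3; limma adjusted p = 6.92e-09). CM014B05 had -2.58, -2.35 and -2.99. All sets of both clones were far below 0. At 0, the lowest was CM011H07, with -2.76, -2.71 and -2.68, a 6.55-fold lower level (-2.71 ± 0.04, SD, n = 3; limma adjusted p = 2.07e-11). CM003F06 and CM008G07 came next, at -2.48 and -2.47. CM042A06 differed between these ages, at -2.63 ± 0.13 at -3 and -1.01 ± 0.04 at 0 (SD, n = 3 each).

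After +3, most members were higher, and more of them at +5 and +10 than at +20. At +5, 173 of 181 members tested were higher (26.8% of all clones) and none was lower (29.2% of all clones; none at an unadjusted p under 0.05), with a median of 0.93 against -0.03 over all clones. At +10, 187 of 189 were higher (28.8% of all clones) and none was lower (30.2% of all clones). None was lower at an unadjusted p under 0.05 either. The median at +10 was 1.17 against -0.02, and 144 members were at least 2-fold higher, against 640 of 10306 clones. The comparison at +10 names wild-type +10 RNA, which the criterion on wild type over fl names too, and the +3 RNA of the other criterion. It is therefore not independent of how the members were chosen. Its count and the p-values given for single members at +10 are descriptions. At +20, 150 of 189 were higher (33.5% of all clones), none was lower (35.8%; none at an unadjusted p under 0.05) and 39 were not called. The median at +20 was 0.57 against -0.01, and 65 members were at least 2-fold higher, against 826 of 10480 clones. The members' medians by set were 0.86 and 0.96 at +5, 1.19 and 1.12 at +10, and 0.50, 0.63 and 0.66 at +20. At +15, where the members were chosen, the set medians were 0.61, 0.74 and 0.89. By sign, 180 of 181 members were above 0 in every set at +5 (39.1% of all clones), 188 of 189 at +10 (42.4%) and 176 of 183 at +20 (41.9%).

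**Figure D2:**
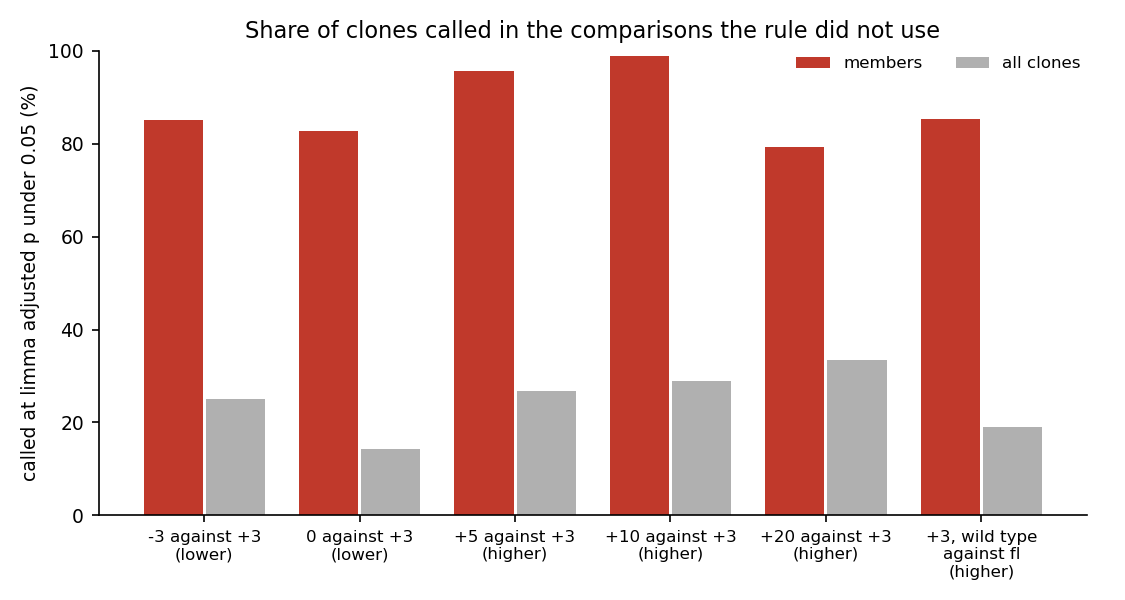
Bars give the percentage of clones called in the comparisons that did not define the cuts (limma, adjusted p under 0.05, in the direction under each pair), red for the members and grey for all clones. The members' bar is the taller one in each pair, from 150 of 189 members called at +20 to 187 of 189 at +10. Every comparison shares wild-type RNA with a criterion, and that at +10 with both, so the bars are not independent of the choice.

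Of the 174 members with a value at every age, 105 peaked at +10, and 29 peaked at +5, 23 at +15 and 17 at +20. The minimum fell at -3 in 136 members, at 0 in 32, and at +3, where every ratio is 0 by definition, in 6. The criterion at +15 left no room for a peak at +3 or a minimum at +15. The other criterion names the +10 wild-type RNA. The counts of peaks and minima are therefore descriptions. Between +10 and +15, each read through +3, the members had a median difference of -0.37, with 43 of 189 above 0, and between +15 and +20 a median of -0.19, with 52 of 189 above 0. The clones between the cuts had a median of 0.30 from +15 to +20, with 158 of 239 above 0. Both differences contain the values that chose the groups and are descriptions.

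The members did not share 1 course after +10. They were sorted by their level at +20 after the values had been seen, so the sorting is a description. In 84 members the level at +20 was under 0.5, in 36 it was from 0.5 to under 1, and in 46 it was 1 or more without being 2-fold above +5. Another 14 were at least 2-fold higher at +20 than at +5. Their medians were -0.80 at -3 and -0.63 at 0, then 0.60 at +5, 1.57 at +10, and 2.64 and 2.66 at +15 and +20. The 46 reached their level by +5, with medians of 1.59 at +5, 1.60 at +10, 1.25 at +15 and 1.45 at +20. The 84 had 0.78, 1.05, 0.61 and 0.34 at those 4 ages, and the lowest median before flowering, at -1.79. The 9 members without a value at +5, and CM003E03 without one at +20, were not sorted.

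**Figure D3:**
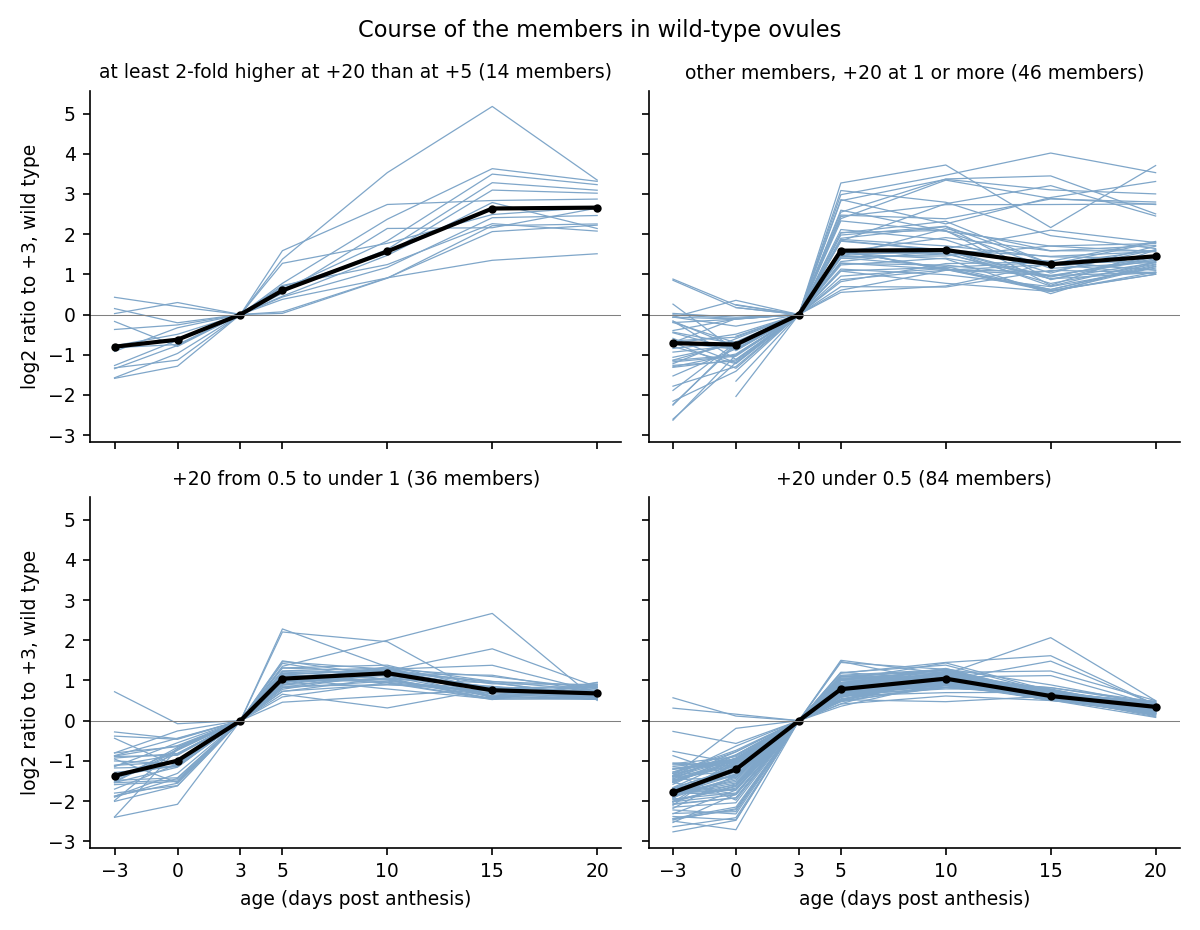
Thin lines are single members and the black line is the median of each group, as log2 ratio to +3 in wild type (y axis) against age in days post anthesis (x axis), in 4 groups sorted by the level at +20. The 14 members at upper left climb to a median of 2.66 at +20, and the 84 at lower right decline to 0.34.

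Among the 14 late members, CM004C02 had 0.63 and 0.92 at +5, 2.47 and 2.27 at +10, and 3.44, 3.31 and 3.19 at +20. Its level at +20 was 9.94-fold that at +3 (3.31 ± 0.13, SD, n = 3; limma adjusted p = 1.73e-10). At +15 it had 3.46, 3.52 and 3.90. CM023G02, CM015D09 and CM070B03 had the same order of ages up to +15 but were below CM004C02 at +10. Over the 4 clones the means ran from -1.29 to -0.77 at 0, from 0.57 to 0.78 at +5, from 1.52 to 2.37 at +10, from 3.10 to 3.63 at +15 and from 3.02 to 3.31 at +20. At 0 and +10 their means spanned more than the SD over sets of any of them. At +5 and +20 they spanned barely more, 0.202 and 0.295 against largest SDs of 0.199 and 0.290. At -3 they ran from -1.59 to -1.33. Whether they are copies of 1 transcript cannot be read from the files used here. CM049H07 was the lowest member at +5, with 0.12 and -0.06 at +5 (0.03, limma adjusted p = 0.869), and had 2.25 at +20 (limma adjusted p = 9.13e-13).

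CM027E10 had the highest value at +15 among the members, with 4.55, 4.86 and 6.12, a mean of 5.18 ± 0.83 (SD, n = 3), or 36.2-fold. At +10 it had 3.48 and 3.58, an 11.6-fold higher level (limma adjusted p = 6.18e-10). At +20 it had 3.43, 3.23 and 3.38, below every set at +15. Unlike most members it was not lower before +3, at 0.15 at -3 and -0.21 at 0 (limma adjusted p = 0.614 and 0.430).

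CM034C01 was the member with the steepest decline after +15. It had 2.62, 2.77 and 2.62 at +15 and 0.39, 0.31 and 0.82 at +20 (0.50 ± 0.28, SD, n = 3; limma adjusted p = 0.0124). The sets of these 2 ages did not overlap.

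Among the 46 members at 1 or more at +20, CM019C09 had 2.86 and 2.80 at +5, 3.38 and 3.35 at +10, and 3.03, 2.92 and 3.06 at +20. Its level at +10 was 10.3-fold that at +3 (limma adjusted p = 1.07e-10), and at +20 it was 8.003-fold (limma adjusted p = 1.81e-12). Its sets at 0 were all below 0, with a mean of -1.20. CM019E04 was the highest member at +5, +10 and +20. It had 3.24 and 3.30 at +5, 3.35 and 4.09 at +10, and 3.18, 3.98 and 3.96 at +20, a 13.1-fold higher level (3.71 ± 0.45, SD, n = 3; limma adjusted p = 4.96e-13). At +15 it stood lower than at either neighbouring age, at 2.32, 2.27 and 1.90, and no set there reached the lowest set at +10 or +20.

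CM008H09 and CM024E02 were among the 6 highest members at +15 partly through 1 set. CM008H09 had 3.28, 3.20 and 5.57, and CM024E02 had 2.82, 1.94 and 5.80. At +20, CM008H09 had 3.53 ± 0.47 (SD, n = 3; limma adjusted p = 5.27e-07). CM024E02 was not called at +10, at 1.18 (limma adjusted p = 0.118).

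The members with the lowest values at +20 were CM035E08, CM106A10 and CM066H06. CM035E08 had 0.17, 0.10 and -0.02 at +20 (0.08, limma adjusted p = 0.482), after 0.90 and 1.16 at +10. CM106A10 had 0.23, 0.17 and -0.11 at +20 (0.10, limma adjusted p = 0.567). CM066H06 had 0.28, 0.17 and -0.11 at +20 (0.11, limma adjusted p = 0.481). In each of the 3 clones 1 set at +20 was below 0, while every set at +15 was above 0. All 3 were far lower before +3, with means at 0 of -1.48 for CM035E08, -2.32 for CM106A10 and -2.22 for CM066H06. At +10, CM106A10 was among the lowest members against +3, at 0.46 and 0.49, although its wild type over fl ratio there was 3.44, 3.48 and 3.91.

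CM005E10 and CM074E08 were high with different starts. CM005E10 had -2.13, -2.24 and -1.75 at 0 and 2.96 and 3.22 at +5 (limma adjusted p = 0.000403 and 2.44e-05). Its level at +20 was 1.69, 1.75 and 1.49, below both sets at +5. CM074E08 was near +3 at 0, with 0.11, 0.19 and 0.38 (limma adjusted p = 0.652), and had 3.17, 3.61 and 3.92 at +20 (limma adjusted p = 9.58e-08).

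**Figure D4:**
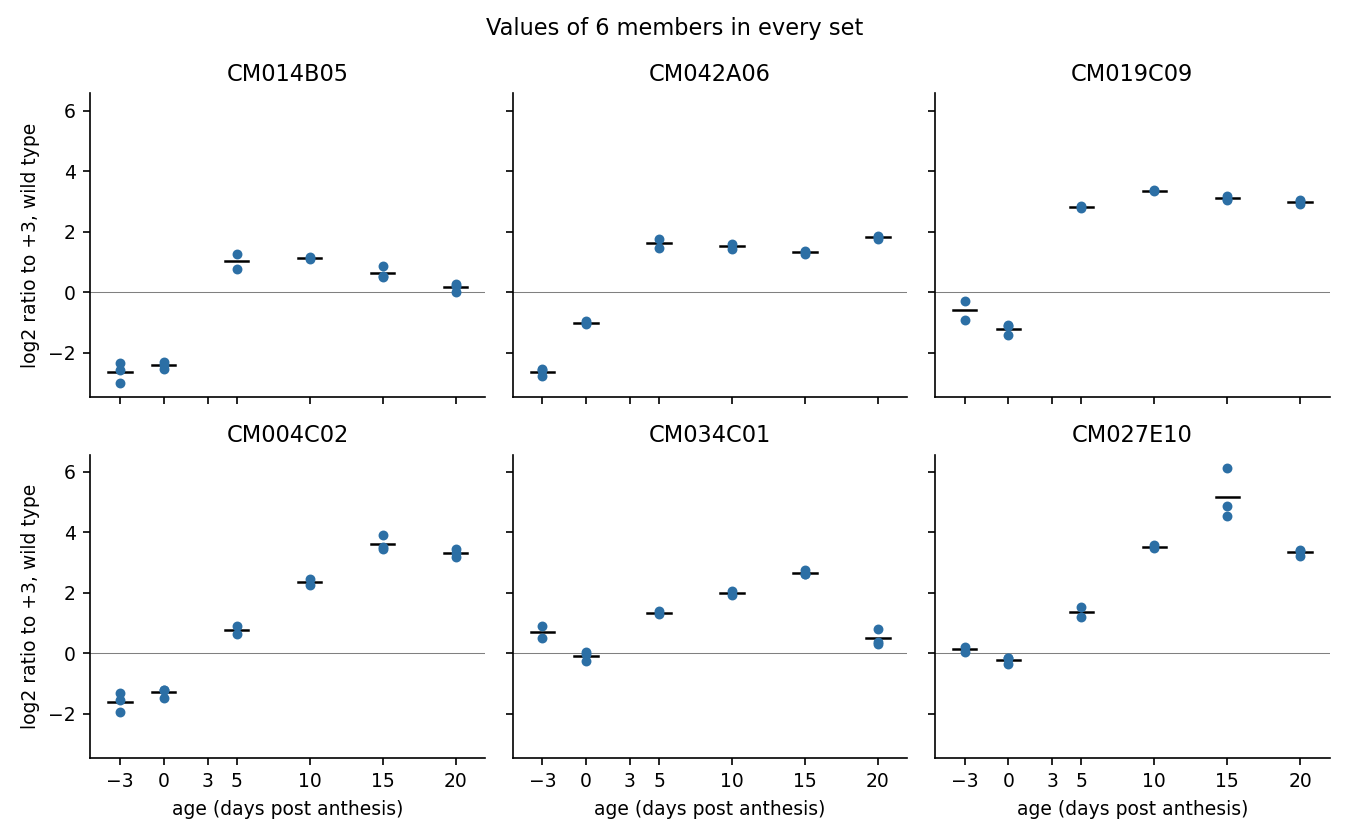
Each panel is 1 of 6 members, with a point for every set and a bar for the mean, as log2 ratio to +3 in wild type (y axis) against age in days post anthesis (x axis). CM027E10 peaks at 5.18 at +15, CM019C09 stays near 3 from +5 to +20, and CM014B05 comes back to 0.17 at +20.

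The 4 members furthest below wild type in fl at +10 were CM014B05, CM011H07, CM003F06 and CM008G07. CM014B05 had wild type over fl of 4.29, 4.04 and 4.73, or 20.4-fold (4.35 ± 0.35, SD, n = 3). CM008G07 was spread more widely over its sets, at 3.81, 2.94 and 5.92. Over these 4 clones the means lay within 0.38 of each other at -3, 0.30 at 0, 0.34 at +10, 0.16 at +15 and 0.12 at +20. At +5 they lay within 0.74, and there CM003F06 had 0.69 and 2.32. At +20 they had nearly returned to +3, between 0.17 and 0.30, and CM014B05 and CM011H07 were not called there (limma adjusted p = 0.306 and 0.168). CM019C09, at 3.81 ± 0.35 for wild type over fl at +10 (SD, n = 3), came close behind, yet stood at 3.00 at +20.

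At +3, 152 of the 178 members tested were lower in fl than in wild type, where 19.1% of all clones were, and 9 were higher in fl, where 25.2% of all clones were. Values were turned for these counts. With the deposited sign, 152 would be higher in fl and 9 lower. The median of the members was 1.33, against -0.07 over all clones. At least 2-fold lower in fl were 123 members, against 409 of 10095 clones. The set medians were 1.26, 1.31 and 1.39. Of 159 members measured in all 3 sets, 144 were above 0 in every set (27.4% of all clones) and 10 below (41.0%). CM014B05 had 2.48, 2.94 and 3.39, a 7.65-fold lower level in fl (2.94 ± 0.46, SD, n = 3; limma adjusted p = 2.62e-12), and -2.94 with the deposited sign. CM003F06 and CM011H07 were the highest, at 3.02 and 3.01, and -3.02 and -3.01 with the deposited sign.

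Of the 178 members measured at both ages, 176 had a larger wild type over fl ratio at +10 than at +3 when the sign at +3 was turned, and the median difference was 0.93. The ratio at +10 chose the members, so this difference was not tested. At +3, 70 of them were already at 1.5 or more, and 25 lay within 0.5 of 0. As deposited, the ratio was larger at +10 in all 178, the median difference was 3.38, 2 members were at 1.5 or more at +3 and 70 at -1.5 or lower. The change of fl itself between +3 and +10 was not measured on any array. Derived from the 3 comparisons that link the samples, it had a median of 0.29 over 177 members, with 123 above 0. With the deposited sign at +3 the median was -2.29, with 16 above 0. The derived value contains the ratio at +10 that chose the members.

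**Figure D5:**
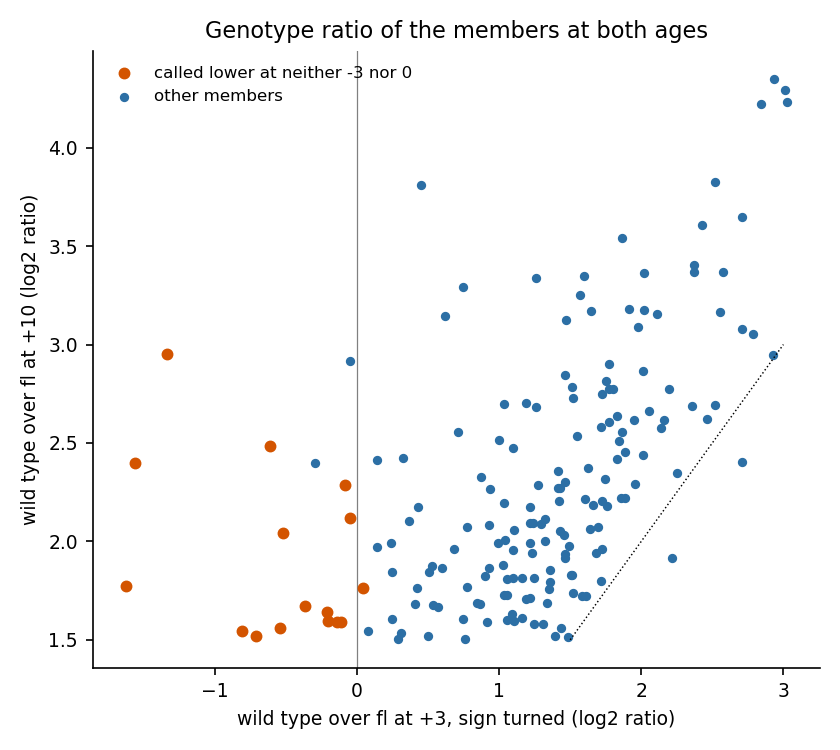
Each point is 1 of 178 members, with wild type over fl at +3 (sign turned) on the x axis and at +10 on the y axis, both as mean log2 ratios, and a dotted line marks equal values. Nearly all points lie above the line, and the members in orange, called lower at neither -3 nor 0, gather at or left of 0 at +3.

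The members were divided by their calls before +3. Of the 181 tested at -3 and 0, 149 were called lower than +3 at both ages, 11 at 1 of them and 21 at neither. Not called does not mean unchanged. Values of the 21 ran from -0.44 to 2.69 at -3 and from -1.12 to 0.44 at 0. In the 149, wild type over fl at +3 had a median of 1.46, and 146 of the 148 tested were lower in fl. In the 21, that median was -0.45, and of the 16 tested none was lower in fl and 9 were higher in fl. As deposited, these medians were -1.46 and 0.45. The 21 also had higher levels later, with medians of 2.07 at +10 and 1.61 at +20, against 1.11 and 0.44 in the 149. All these ratios contain wild-type RNA of age +3, and the 2 groups were formed after the values had been seen, so the difference between them was not tested.

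The 5 members called higher at -3 than at +3 were among the 21. CM003E03 had 2.72, 3.07 and 2.27 at -3 (2.69 ± 0.40, SD, n = 3; limma adjusted p = 1.34e-05), and -0.18 at 0. It was therefore high before flowering, low at 0 and +3, and at 1.62 at +5. CM009H07 and CM030H04 ran close together, at 0.88 and 0.85 at -3, 2.03 and 1.98 at +5, 2.32 and 2.20 at +10, and 1.60 and 1.80 at +20. CM034C01 had 0.72 and CM073D03 had 0.57 at -3 (limma adjusted p = 0.00789 and 0.000528). Of these 5, 4 were called higher in fl at +3 by the turned sign, CM003E03 at -1.63, CM034C01 at -1.56, CM073D03 at -0.81 and CM009H07 at -0.37. CM027E10 had -1.14, -1.29 and -1.59 there, and 3.12, 2.70 and 3.03 at +10. With the deposited sign at +3 these clones would be lower in fl at both ages.

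Taking the 6 comparisons that did not define the cuts, 104 of 170 members tested in all of them were lower at -3 and 0, higher at +5, +10 and +20, and lower in fl at +3. That is 61.2%, against 5.98% of all clones, or 536 of 8961, with the sign at +3 turned. As deposited, 0 of 170 members had this pattern, and 4 of 8961 clones. Over the 5 wild-type comparisons alone it was 106 of 170 members (62.4%), against 615 clones (6.86%). The other 66 departed in at least 1 comparison. Among them, 37 were not called at +20 and 20 not called lower in fl at +3. Not called were also 19 each at -3 and 0, 8 at +5 and 1 at +10. All 6 comparisons contain the +3 wild-type RNA of 1 criterion, and that at +10 also names the wild-type RNA of the other. The percentages of members are therefore not independent of how the members were chosen and are descriptions.

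The clones that met the same criterion on wild type over fl but stood at -0.5 or lower at +15 had other values from 0 on. At 0, 98 of 190 members and 9 of the 52 were at least 2-fold lower, with medians of -1.02 and -0.60. At +5, 173 of 181 members were higher and none lower, and of 51 of the others 26 were higher and 7 lower. The members had medians of 0.93 at +5 and 1.17 at +10, and the 52 clones had 0.48 and 0.16. At +10, 187 of 189 members were higher than at +3, and of 51 of the others 18 were higher and 17 lower. At +20, 150 of 189 members were higher, and 44 of the 52 were lower. At -3 the medians were -1.38 in the members and -1.25 in the 52, and at +3 wild type over fl had turned medians of 1.33 and 1.04 (-1.33 and -1.04 as deposited). The 241 clones between the cuts were close to the members. Lower calls numbered 154 of 181 members and 223 of 240 of these clones at -3, and 157 of 190 and 222 of 241 at 0. Higher calls numbered 173 of 181 and 215 of 237 at +5, 187 of 189 and 229 of 241 at +10, and 150 of 189 and 166 of 239 at +20. At +3, with the sign turned, 152 of 178 members and 223 of 237 of these clones were lower in fl. These groups were cut on +15 over +3, which shares the +3 RNA with every age, and no test between them was made.

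The members were spread unevenly over the printed plates, which are numbered in the clone names. Plates 1 to 40 held 109 members among 2771 clones measured for the choice (3.93%), plates 41 to 79 held 70 among 3316 (2.11%), and plates from 80 up held 11 among 3019 (0.364%). On plates from 80 up the median of all clones was -0.33 for wild type over fl at +10 and -0.37 at +15, against -0.05 and 0.13 on plates 1 to 40. With each set centred separately on the plates under 80 and from 80 up, 152 clones met the criteria, of which 138 were members and 25 lay on plates from 80 up. The part of the plates in the choice of members was not tested further. In the 3 self-to-self arrays, which carried +3 wild-type RNA in both channels, the members had medians of 0.06, 0.18 and 0.17 after centring, and at most 1 of 190 on an array differed by 2-fold.

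Of the 11 spots listed under gene-like names, the spot listed as SDH met both cuts, although it is no clone row and was not counted. It had -1.51 at -3, -0.995 at 0, then 0.93 at +5 and 1.35 at +10. Its value was 0.66 at +15 and 0.52 at +20. Wild type over fl was 1.81 at +10 and 2.04 at +3. The sign of the named spots at +3 was not turned, and as deposited the members' median at +3 was -1.33, on the other side of 0. The spot listed as ACT1 had 1.55 for wild type over fl at +10 but -0.38 at +15, and TUB1 had 0.85 at +15 but 0.52 for wild type over fl at +10.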

How the data were processed

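Ratios of 2 dyes on 51 arrays were analysed. The authors deposited 1 table of log2 ratios. The log base was found from the values, and the normalization and its tools are not given in the sources used here. Dyes, ages and set numbers were taken from the labels. No brightness is in the table, so no dim spot was left out, and precision is limited by the number of arrays. An exact 0 was taken as not measured. A set counted when its array and dye swap were both measured, and a clone was tested with at least 2 sets, except where a left-out set left 1 at +5 or +10.

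All clones and named spots were fitted in 1 limma 3.58.1 model (R 4.3.3, lmFit and eBayes) with a mean per comparison. Benjamini-Hochberg adjustment ran within each contrast over all rows tested, with a threshold of 0.05. The prior SD was 0.184, with 6.12 degrees of freedom. The fit was tested on simulated data. Other values were computed in Python 3.11.15 with pandas 2.3.3. The 6 comparisons that did not define the cuts were tested. They share wild-type RNA with the criteria, so these tests are not independent of how the members were chosen. The design text calls the samples biologically independent. The members, lists and sign check were chosen with earlier results of these data known.

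Clones were named by rule: the 6 highest members in each comparison of the choice, the 3 highest and 3 lowest in each other comparison, the 3 clones on either side of each cut, and members called against the majority where there were 5 or fewer. CM015D09 and CM070B03 were added after their values were seen where the rule did not name them. Alternatives were array centring and scaling, a set-number block, separate fits, single sets left out, the shared array kept, zeros kept, 1 array enough for a set, the deposited sign and other cuts. Alternatives by plate and by self-to-self array were chosen after seeing the data. Set numbers were not taken to pair the samples.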

Additional observations from a re-analysis of the deposited data

Results flagged for a closer look

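In 10 members wild type over fl was below 0 at +3 in all 3 sets, with the sign turned. Among the clones named here, 5 of them were also above 0 at +10 in all 3 sets, so that the genotype ratio had opposite signs at the ages in every set. The means at +3 were -1.34 for CM027E10, -0.37 for CM009H07, -0.52 for CM042C08, -1.56 for CM034C01 and -0.81 for CM073D03. At +10 these clones had 2.95, 1.67, 2.04, 2.40 and 1.54. The difference between the ages was not tested, because the ratio at +10 chose the members. All 173 members measured in 3 sets at +10 were above 0 in each of them, so that sign is not particular to these 5. With the deposited sign at +3 all 5 are lower in fl at both ages.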

How the results depend on the processing

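The number of members depended on the cuts, with 66 when both were 0.25 higher and 384 when both were 0.25 lower. It was 228 with arrays centred, 128 with arrays centred and scaled, 176 with zeros kept, 195 with 1 array enough, 190 with the shared array kept and 152 with plates centred separately. With the deposited sign at +3, 9 of the members tested were lower in fl and 152 higher, and CM003F06, CM011H07 and CM014B05 had -3.02, -3.01 and -2.94, while CM003E03, CM034C01 and CM027E10 had 1.63, 1.56 and 1.34. Leaving out 1 set in turn gave 130 to 155 members lower at -3, 146 to 163 lower at 0, 139 to 179 higher at +5, 175 to 188 at +10, 124 to 156 at +20, 136 to 149 lower in fl at +3, and 141 to 201 members. At +5 and +10 some of these fits held 1 set, which was assumed to vary like the other comparisons. CM049H07 at +5 ran from -0.0610 to 0.116 and CM073C10 at +10 from -0.0468 to 0.681 without 1 of their sets. Over 70 pairs of same-numbered sets the deviations correlated at -0.25 to 0.33, with a median of 0.05 and 17 above 0.1. Correlations over so few sets cannot settle whether equal numbers share RNA, and the numbers were not taken to pair the samples. With set number as a replicate block the counts were 154, 160, 176, 187, 152 and 150. Without the clones on plates from 80 up they were 148, 149, 163, 176, 142 and 147. The sign correlation nearest to 0 at +3 ran from -0.38 to -0.35 with 1 self-to-self array left out.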
